A study of Homo sapiens with 12 samples.

Results

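The MYC and MAX network is the set of basic helix-loop-helix leucine zipper transcription factors that pair with MAX, or with its relative MLX, and bind E-box DNA as dimers. It was followed here through 10 genes, taken from 62754 in the table by matching each Ensembl identifier to its symbol: MYC, MYCL and MYCN (the MYC family), MAX (the shared partner), MXD1, MXD4, MXI1 and MNT (partners of MAX that recruit corepressors), and MLXIP and MLX (the MLX branch). Their RNA was counted in PC9, a human lung adenocarcinoma line driven by mutant EGFR, in 12 polyadenylated RNA libraries. There were 4 groups of 3 cultures. TDP1 wild-type cells without drug are called untreated WT. The same cells were kept in the EGFR inhibitor erlotinib at 1 µM, and were collected at 7 days as drug-tolerant cells (DTC) or at 28 days as drug-tolerant expanded cells (DTEC). The last group (KO) was KO2, a TDP1 knockout line, without drug. TDP1 encodes an enzyme that removes trapped topoisomerase 1 from DNA. All groups derive from a subclonal PC9 line, so KO stands for 1 line only, no erlotinib-treated KO cells were measured, and the cultures of a group were split from a common flask. P-values therefore measure the spread between such cultures and no more.

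MYC, MYCL and MYCN need MAX to bind DNA, and the resulting dimers recruit histone acetyltransferases and raise the transcription of genes for ribosome assembly, nucleotide synthesis and cell cycle entry. MXD1, MXD4, MXI1 and MNT compete for MAX and for the same E-box sites but bring in SIN3 and histone deacetylases, and several of them are known for rising as cells leave the cycle. MLXIP pairs with MLX and responds to glucose metabolites, and in EGFR-mutant lung cancer MYC is known as a gene whose transcription depends on EGFR and ERK signalling.

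The libraries held 25572691 to 38373679 estimated counts. TDP1 RNA was 26.3 ± 1.60 CPM (the count per 1e6 of the TMM-scaled library total, SD, n = 3) in untreated WT and 10.8 ± 0.647 in KO (log2 fold change -1.29, edgeR adjusted p = 1.3e-05). The KO libraries thus matched their label by a lower level and not by absence. All 5 epithelial markers (EPCAM, KRT7, KRT8, KRT18, CDH1) were counted in every group, with sums of 5464 to 6203 CPM in DTC and 8074 to 10830 in the other groups. Neuroendocrine markers, of interest because MYCL and MYCN are best known from neuroendocrine lung cancer, summed to at most 2.27 CPM, and NEUROD1 was at 0 in every group. The 5 fibroblast markers summed to 54.9 to 57.6 CPM in DTC against 7.99 to 8.91 in untreated WT, nearly all of it COL1A1 (55.7 ± 1.32 and 8.30 ± 0.518), while COL1A2, DCN and LUM were at 0 in untreated WT and each at most 0.557 CPM in DTC. The 5 leukocyte markers summed to 25.9 to 54.2 CPM, mostly CD68, with CD3E at 0 in untreated WT and KO. The 3 endothelial markers also differed, with sums of 58.5 to 61.4 CPM in untreated WT, 75.7 to 77.3 in KO, 41.9 to 49.5 in DTC and 122 to 142 in DTEC, and with PECAM1 at 32.0 ± 3.09, 48.4 ± 2.05, 8.77 ± 1.08 and 92.1 ± 2.74 in that order. The part of these marker differences in the results below was not tested.

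Compared per kilobase of exon, MYC was the most abundant member in every group, at 101.7 ± 9.83 CPM per kb in untreated WT, 81.5 ± 3.8 in KO, 25.8 ± 3.25 in DTC and 74.4 ± 5.44 in DTEC. MAX stood next in every group, at 15.1 ± 0.368, 13.3 ± 0.0837, 15.4 ± 1.85 and 12.1 ± 0.410 CPM per kb in that order. MLX came after MAX in all 4 groups, from 6.06 ± 1.36 CPM per kb in DTC to 8.44 ± 0.0226 in untreated WT. The order below MLX changed with treatment. In untreated WT it ran MLXIP, MNT, MXI1, MXD1, MXD4, and of these neighbours only MNT (4.42 ± 0.739) and MXI1 (4.21 ± 0.525) overlapped. In DTC, MNT (4.0 ± 0.0525), MXD4 (3.76 ± 0.563) and MXI1 (3.59 ± 0.418) were neighbours whose libraries overlapped, as were MLX, MLXIP and MXD1 above them. In DTEC, MXI1 moved up to 6.96 ± 0.556 CPM per kb and overlapped MLXIP at 6.57 ± 0.533. MYCL was next to last in every group, between 0.243 ± 0.0582 and 0.826 ± 0.248 CPM per kb. This order rests on the length used, which joins all annotated exons of a gene and not those of the expressed transcript. Without division by length, MLXIP (90.7 ± 8.14 CPM) stood above MAX (66.9 ± 1.63) in untreated WT, and MNT (38.6 ± 6.45) and MLX (36.0 ± 0.0960) lay close together.

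**Figure D1:**
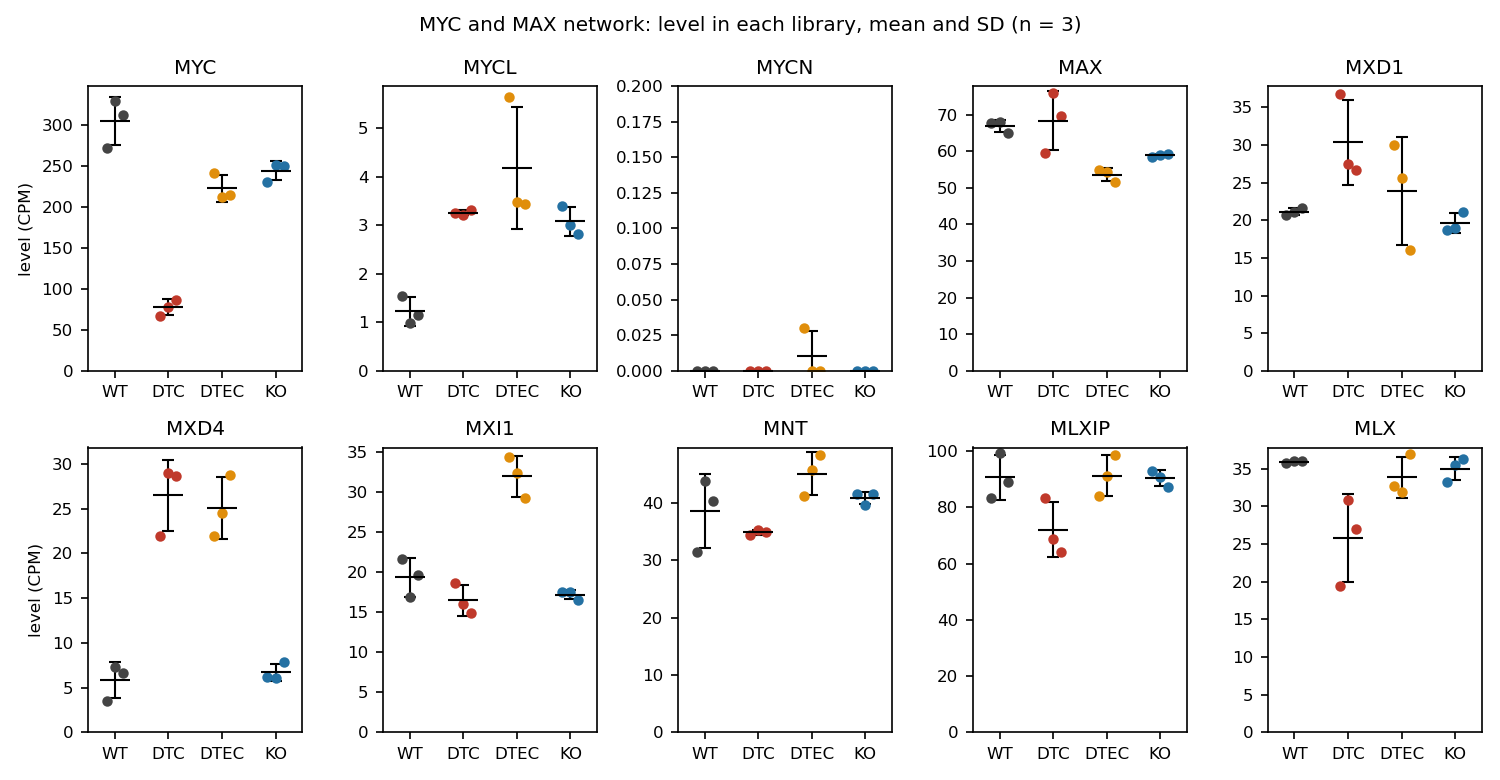
Level of each network gene in CPM (vertical axis, linear, starting at 0 and scaled per panel) in the 4 groups; points are libraries, bars are the mean and SD (n = 3). MYC in the 3 DTC libraries lies at 67.5 to 87.0 CPM, below all others, while MXD4 lies at 21.9 to 28.99 CPM in DTC and DTEC and at 3.52 to 7.82 in untreated WT and KO.

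MYC RNA fell in erlotinib and came back in part by 28 days. The gene (ENSG00000136997) encodes the family member that drives growth in most epithelial cancers. Untreated WT libraries held 273, 330.4 and 313 CPM of MYC, DTC libraries 67.5, 78.1 and 87.0, DTEC libraries 242, 212 and 215, and KO libraries 231, 252 and 250.3. DTC lay far below every other group without overlap, and both DTEC and KO lay below untreated WT without overlap. In DTC, MYC was at 25.4% of its untreated WT mean, a log2 fold change of -1.98 ± 0.115 (SE; edgeR quasi-likelihood test, adjusted p = 3.38e-09). DTEC stood at 73.2% of untreated WT (-0.45 ± 0.111, adjusted p = 0.00351) and 2.88-fold above DTC (1.53 ± 0.114, adjusted p = 9.27e-08). The 13 alternative settings kept each of these 3 calls, with log2 fold changes of -2.03 to -1.62 for DTC and -0.51 to -0.28 for DTEC against untreated WT. In bulk RNA, fewer cells with high MYC and less MYC RNA in each cell cannot be told apart. KO stood at 80.1% of untreated WT (-0.32 ± 0.111), which did not pass (adjusted p = 0.138) unless the fit was limited to these 6 libraries (adjusted p = 0.0166). PVT1, the long non-coding gene beside MYC, had 16.7 ± 1.36 CPM in untreated WT and 11.5 ± 1.07 in DTC (log2 fold change -0.54), a call lost with total-count (adjusted p = 0.185) and upper-quartile (0.0854) scaling. PVT1 was also called lower than untreated WT in DTEC (-0.395) and, without drug, in KO (-0.539). The DTEC call was lost in 3 of 13 alternatives and the KO call in 4 of 13.

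MYCL rose in all 3 other groups, from a very low level. MYCL (ENSG00000116990, chr1:39895426-39902256 on GRCh38) encodes L-MYC, the family member first found amplified in small cell lung cancer. In untreated WT it had 1.55, 0.978 and 1.15 CPM, resting on 52, 29 and 40 counts. DTC libraries held 3.24, 3.21 and 3.31 CPM, DTEC libraries 5.63, 3.48 and 3.44, and KO libraries 3.41, 3.01 and 2.82. Every DTC, DTEC and KO library lay above every untreated WT library. The log2 fold change against untreated WT was 1.4 ± 0.239 in DTC (adjusted p = 0.000126), 1.76 ± 0.238 in DTEC (adjusted p = 2.89e-05) and 1.32 ± 0.240 in KO (adjusted p = 0.00613), and each call was kept in its 13 alternatives. The 3 comparisons share the untreated WT libraries. DTEC against DTC did not pass (0.36 ± 0.222, adjusted p = 0.183), and MYC still exceeded MYCL per kilobase in every library. MYCL overlaps an antisense gene, MYCL-AS1, on the opposite strand, which had 25 counts over the 12 libraries against 1132 for MYCL. MYCN (ENSG00000134323, chr2:15940564-15947007) had 1 count, in a DTEC library, over all 12, so it was not tested. A count of 0 allows up to 0.0824 to 0.115 CPM (3 counts, counting error only, per library).

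MAX, the common partner, moved little. MAX (ENSG00000125952, chr14:65006174-65102695) had 67.8, 67.9 and 65.0 CPM in untreated WT, 59.7, 75.9 and 69.7 in DTC, 55.0, 54.3 and 51.6 in DTEC and 58.5, 59.1 and 59.2 in KO. DTC libraries fell on both sides of untreated WT, while DTEC and KO libraries lay below it. The log2 fold change was 0.03 ± 0.0956 in DTC (adjusted p = 0.776). MAX fell in DTEC, by 0.32 on the log2 scale against untreated WT (SE 0.0959, adjusted p = 0.0121) and by 0.35 against DTC (SE 0.0959, adjusted p = 0.0064). Against untreated WT the DTEC call was lost with total-count scaling (adjusted p = 0.199), with upper-quartile scaling (0.0957) and without the filter on low counts (0.0579), whereas the difference from DTC was kept in all 13 alternatives. Those 2 scalings called MAX higher in DTC (adjusted p = 0.00237 and 0.00959). The KO difference was -0.18 ± 0.0957 (adjusted p = 0.366). MAX shares its span with FNTB on the opposite strand, and the strand setting of the counting is not given in the sources used here.

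Among the repressor partners, MXD4 showed the widest range. MXD4 (ENSG00000123933, chr4:2247432-2262294) encodes MAD4, a MAX partner that recruits SIN3. Its levels were 3.52, 7.32 and 6.66 CPM in untreated WT, 21.9, 28.99 and 28.6 in DTC, 22.0, 24.5 and 28.8 in DTEC and 6.18, 6.12 and 7.82 in KO. Treated libraries all lay above all untreated ones, DTC and DTEC overlapped, and KO overlapped untreated WT. MXD4 rose 4.55-fold in DTC (log2 fold change 2.19 ± 0.224, adjusted p = 1.12e-06) and 4.31-fold in DTEC (2.11 ± 0.223, adjusted p = 4.1e-06), in all 13 alternatives of each. The change between DTC and DTEC was -0.08 ± 0.207 (adjusted p = 0.762). MXD4 thus kept its raised level at 28 days, when MYC had risen from its low point, and a difference of the size of this SE between the 2 times was not detectable.

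MXI1 was high in DTEC alone. MXI1 (ENSG00000119950, chr10:110207605-110287365) encodes a further MAX partner that brings in SIN3 and is known as a gene raised by hypoxia and by FOXO factors. It had 21.7, 16.9 and 19.6 CPM in untreated WT, 18.7, 16.04 and 14.9 in DTC, 34.4, 32.4 and 29.3 in DTEC and 17.6, 17.5 and 16.5 in KO. The 3 DTEC libraries lay above the other 9. MXI1 rose 1.65-fold in DTEC against untreated WT (0.72 ± 0.119 on the log2 scale, adjusted p = 0.000157) and 1.94-fold against DTC (0.96 ± 0.120, adjusted p = 1.31e-05), and both calls were kept in every alternative. In DTC the log2 fold change was -0.23 ± 0.120 (adjusted p = 0.101), or 0.0324 without DTC replicate 1, and turned to 0.12 with total counts and 0.06 with the upper quartile, neither of them called. In KO it was -0.17 ± 0.120 (adjusted p = 0.511).

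MXD1 and MNT changed less. MXD1 (ENSG00000059728, chr2:69897688-69942945), which encodes MAD1, a MAX partner known for rising as cells differentiate, had 20.7, 21.1 and 21.6 CPM in untreated WT, 36.8, 27.5 and 26.7 in DTC, 29.99, 25.63 and 15.99 in DTEC and 18.7, 19.0 and 21.1 in KO. DTC lay above untreated WT, and the 3 DTEC libraries spread to both sides of it. The DTC rise of 0.52 ± 0.186 (log2, adjusted p = 0.0226) rests in part on 1 library, since without DTC replicate 1 the adjusted p was 0.0673. DTEC against untreated WT gave 0.18 ± 0.186 (adjusted p = 0.447), or an adjusted p of 0.0363 without DTEC replicate 3. DTEC against DTC gave -0.35 ± 0.185 (adjusted p = 0.129), and passed with total-count scaling (0.0254), upper-quartile scaling (0.0253) and without DTEC replicate 1 (0.0214). MXD1 shares part of its span with SNRNP27 on the same strand. MNT (ENSG00000070444, chr17:2384060-2401118), the repressor that is present in both dividing and resting cells, had 31.4, 43.9 and 40.4 CPM in untreated WT, 34.4, 35.4 and 34.98 in DTC, 41.2, 45.8 and 48.5 in DTEC and 41.6, 39.7 and 41.5 in KO. Untreated WT spanned the DTC and KO values. MNT was not called in DTC (log2 fold change -0.14 ± 0.116, adjusted p = 0.288, and 0.21 with total counts) or in DTEC against untreated WT (0.23 ± 0.116, adjusted p = 0.115), though the latter passed with total-count scaling (0.0128), upper-quartile scaling (0.0245) and without untreated WT replicate 2 (0.0454). MNT was higher in DTEC than in DTC (0.37 ± 0.116, adjusted p = 0.0144), a call lost with total-count (0.205) and upper-quartile (0.168) scaling and without DTC replicate 3 (0.0512), DTEC replicate 2 (0.0616) or DTEC replicate 3 (0.0923).

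The MLX branch was somewhat lower in DTC. MLX (ENSG00000108788, chr17:42567068-42573239), the relative of MAX that is the shared partner in this branch, had 35.8, 36.0 and 36.0 CPM in untreated WT, 19.5, 30.9 and 27.1 in DTC, 32.8, 31.9 and 37.0 in DTEC and 33.3, 35.5 and 36.3 in KO. MLXIP (ENSG00000175727, chr12:122078722-122147347), which encodes the glucose-responsive factor MondoA, had 83.4, 99.5 and 89.2 CPM in untreated WT, 83.3, 68.8 and 64.3 in DTC, 84.0, 91.1 and 98.8 in DTEC and 92.9, 90.9 and 87.3 in KO. For both genes the DTC libraries lay below untreated WT and below DTEC, for MLXIP only narrowly, while DTEC and KO overlapped untreated WT. MLX fell in DTC by 0.48 on the log2 scale (SE 0.136, adjusted p = 0.00649) and MLXIP by 0.33 (SE 0.112, adjusted p = 0.0174). These calls were sensitive to the scaling: MLX gave an adjusted p of 0.438 with total counts and 0.262 with the upper quartile. MLXIP turned to 0.02 with total counts (adjusted p = 0.858), gave an adjusted p of 0.732 with the upper quartile and 0.0641 in a fit of the 6 libraries, and lost its call without untreated WT replicate 2 (0.136) or 3 (0.0626) or DTC replicate 2 (0.121) or 3 (0.174). From DTC to DTEC, MLX rose by 0.39 ± 0.137 (adjusted p = 0.025) and MLXIP by 0.34 ± 0.112 (adjusted p = 0.0187). The first was lost with total counts (0.217), the upper quartile (0.218), the 6 libraries alone (0.0971) and without DTC replicate 1 (0.0677) or DTEC replicate 3 (0.121). The second was lost with total counts (0.261), the upper quartile (0.197), the 6 libraries alone (0.114) and without DTC replicate 2 (0.0998) or 3 (0.141) or DTEC replicate 2 (0.0693) or 3 (0.127). MLX overlaps PSMC3IP on the opposite strand, and none of its 12 values were whole numbers, as RSEM gives where reads are shared out between features.

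Counted over the 9 tested members, 3 were called higher in DTC than in untreated WT (MYCL, MXD1, MXD4) and 3 lower (MYC, MLXIP, MLX), where 34.0% of all 17115 tested genes were called higher and 33.3% lower. In DTEC against untreated WT, 3 were higher (MYCL, MXD4, MXI1) and 2 lower (MYC, MAX), beside 26.0% and 26.3% of all genes. DTEC against DTC gave 5 higher (MYC, MXI1, MNT, MLXIP, MLX) and 1 lower (MAX), beside 28.8% and 26.6%. In KO, MYCL was the only member called higher and 0 were lower, beside 2.76% and 1.55%. By edgeR at an unadjusted p of 0.05, 1 member (MYC) was lower in KO, and DESeq2 also called 0 lower. The members' shares in DTC were thus near the background of all genes. The median log2 fold change of the members was -0.14 in DTC, 0.18 in DTEC and 0.36 from DTC to DTEC, with -0.04 in KO, against 0.06, 0.02, -0.01 and -0.01 over all genes. Scaling bears on these small values: with total counts alone, the median over all genes in DTC became 0.41 and that of the members 0.21, and 68.4% of the calls in DTC were higher, against 50.5% with TMM scaling. The same share moved from 49.7% to 63.8% for DTEC against untreated WT, from 51.9% to 37.4% for DTEC against DTC and from 64.1% to 78.8% in KO.

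**Figure D2:**
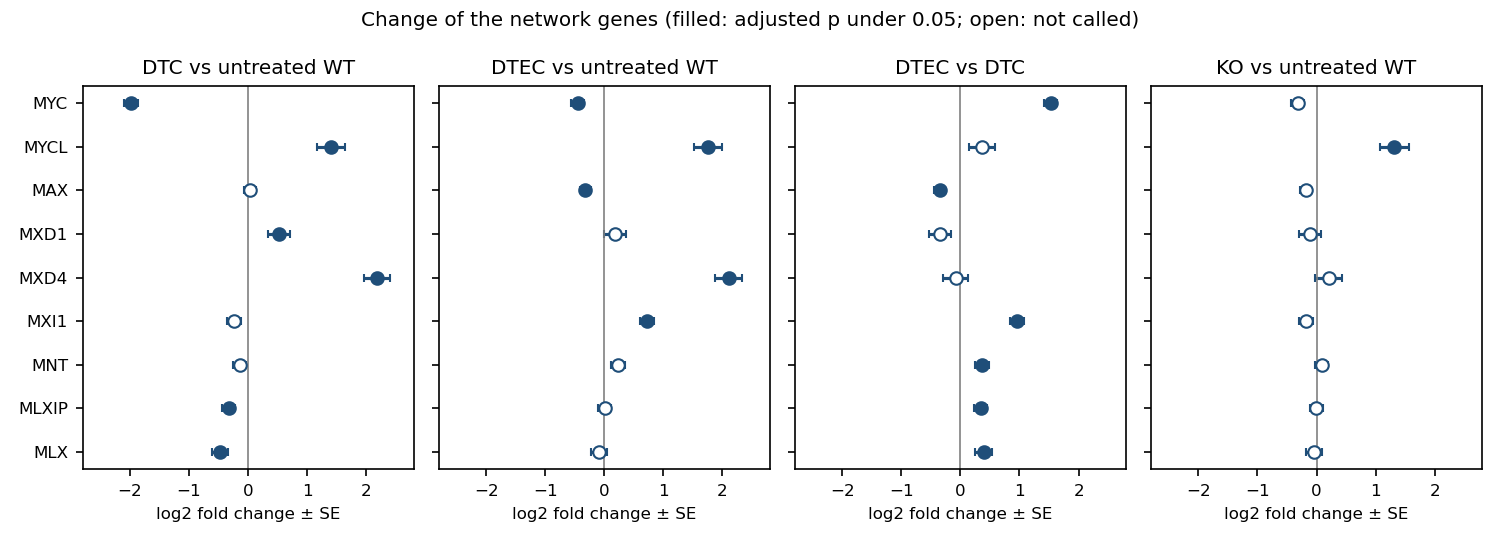
Log2 fold change of the 9 tested network genes (horizontal axis; bars are the SE) in the 4 comparisons; filled points passed an adjusted p of 0.05 (edgeR). MYC at -1.98 and MXD4 at 2.19 stand farthest from 0 in DTC, and MYCL at 1.32 is the only filled point in KO.

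E-box letters were looked for in the members' promoters, because MAX and MLX dimers bind them and members of the network are themselves known targets. The 300 bases from 250 before to 50 after each RefSeq gene start (GRCh38.p14) were searched for CACGTG, which reads the same on both strands. A promoter entry was found for 9 of the 10 members, 12 entries in all. MYC was the member without an entry, so its promoter was not searched. The letters stood in 3 of these 12 entries, 1 each for MXD4, MNT and MLX, and in 7.26% of 35116 promoters of the same length. ARRDC4, a known MLXIP and MLX target, is shown for comparison, and capitals mark the E-box. The MXD4 window is chr4:2262312-2262359 (minus strand, E-box starting 238 bases before the start), the MNT window chr17:2401218-2401283 (minus strand, 193 bases), the MLX window chr17:42567020-42567085 (plus strand, 50 bases) and the ARRDC4 window chr15:97960463-97960528 (plus strand, 210 bases).
MXD4: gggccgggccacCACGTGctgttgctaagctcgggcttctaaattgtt
MNT: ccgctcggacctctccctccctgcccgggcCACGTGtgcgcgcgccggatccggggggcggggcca
MLX: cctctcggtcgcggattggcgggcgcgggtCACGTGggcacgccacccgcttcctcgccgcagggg
ARRDC4: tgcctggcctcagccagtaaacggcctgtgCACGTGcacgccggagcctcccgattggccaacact
These matches are letters in a window and say nothing of binding in these cells. The 3 members that hold them did not move alike: MXD4 rose in DTC, MLX fell and MNT was not called.

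The forkhead letters GTAAACA were searched on both strands, where the reverse reads TGTTTAC. They were chosen after the sequences had been seen, so a match in MXI1 was fixed by the choice and is no test. The letters stood in 2 of the 3 MXI1 promoter entries and in 3.42% of all promoters. MXI1 was the only searched member with a match, and a TXNIP promoter also held them. The MXI1 promoters are shown because MXI1 was the member that was high in DTEC alone, with capitals marking the letters. The 3 entries are numbered by position, and entry 1, the farthest upstream, had no match. The window of entry 2 is chr10:110210050-110210116 (plus strand, 151 bases before that start) and that of entry 3 chr10:110225983-110226012 (plus strand, 2 bases before). The gene-level counts do not separate transcripts from these starts.
MXI1 entry 2: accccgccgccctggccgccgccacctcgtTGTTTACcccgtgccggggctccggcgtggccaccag
MXI1 entry 3: cgcggggagagGTAAACAaaccacgcgcgg
A match here is a description of the sequence and not a site.

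Ratios taken within a library do not depend on scaling between libraries, and they changed in the direction of the single genes. The summed level of MYC, MYCL and MYCN per kilobase was 7.56, 8.45 and 7.89 times that of MXD1, MXD4, MXI1 and MNT together in untreated WT. It was 1.37, 1.67 and 1.91 times in DTC, 4.09, 3.61 and 3.92 in DTEC and 6.28, 6.93 and 6.57 in KO. No 2 groups overlapped, and the order was untreated WT, KO, DTEC, DTC. The means were 7.97 ± 0.451, 6.59 ± 0.325, 3.87 ± 0.240 and 1.65 ± 0.272. RNA ratios of this kind say nothing of the dimers formed, since protein was not measured.

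MYC to MAX showed another pattern. This ratio was 6.74 ± 0.694 in untreated WT, 6.12 ± 0.249 in KO, 1.68 ± 0.161 in DTC and 6.15 ± 0.360 in DTEC. DTEC libraries (6.50, 5.78 and 6.17) overlapped those of untreated WT (5.94, 7.18 and 7.10), whereas for MYC family to repressors the 2 groups did not overlap. The repressors relative to MAX stood at 0.847 ± 0.0567 in untreated WT, 0.936 ± 0.0209 in KO, 1.06 ± 0.173 in DTC and 1.61 ± 0.0139 in DTEC. The summed repressor level was 12.8 ± 0.630 CPM per kb in untreated WT, 12.5 ± 0.296 in KO, 16.1 ± 0.707 in DTC and 19.4 ± 0.814 in DTEC.

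The make-up of the repressors also differed. MXD4 supplied 6.41% ± 2.01 of their summed level in untreated WT, 7.61% ± 0.920 in KO, 23.4% ± 4.36 in DTC and 18.4% ± 3.31 in DTEC. MXI1 supplied 33.1% ± 5.55, 29.99% ± 1.66, 22.2% ± 1.59 and 35.7% ± 1.47 in the same order, with its lowest share in DTC. MNT, at 34.5% ± 4.38 in untreated WT and 37.6% ± 0.707 in KO, stood at 24.9% ± 1.32 in DTC and 26.7% ± 3.22 in DTEC. MXD1 held 26.0% ± 0.831, 24.8% ± 1.15, 29.5% ± 4.13 and 19.2% ± 5.10, again in that order.

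**Figure D3:**
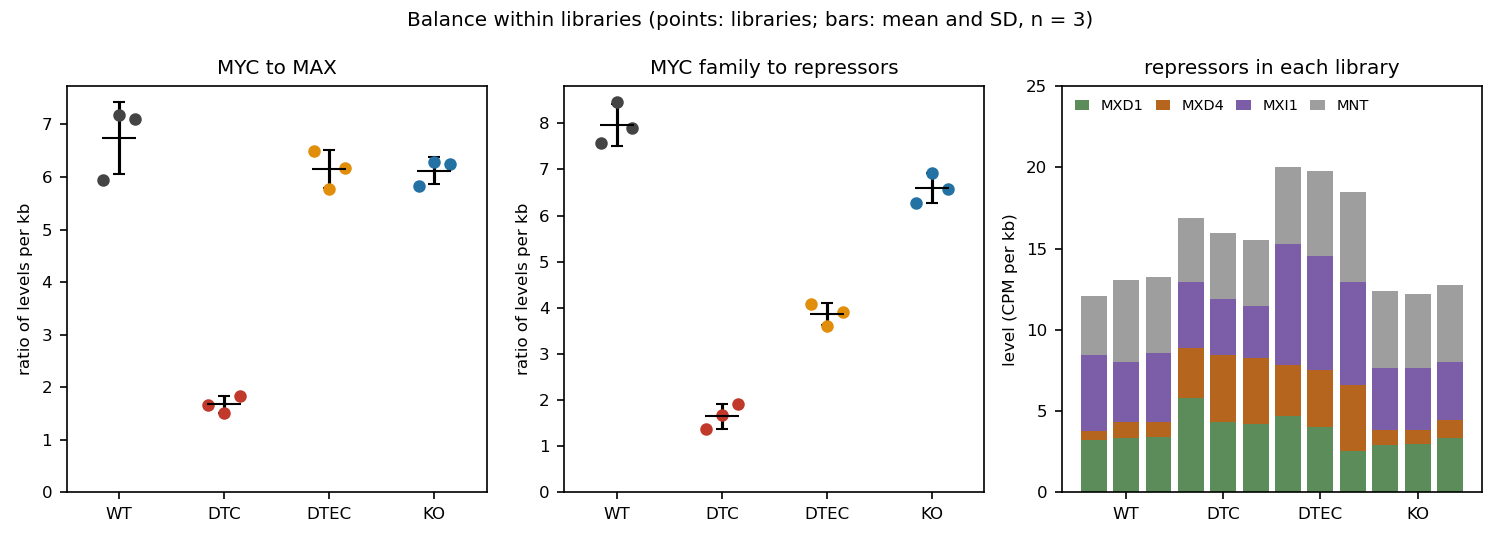
Ratio of MYC to MAX (left) and of the MYC family to the 4 repressors (middle), both from levels per kb, with points for libraries and bars for the mean and SD (n = 3); the right panel stacks the repressor levels in CPM per kb for each library. MYC to MAX in DTEC (5.78 to 6.50) overlaps untreated WT, MYC family to repressors in DTEC (3.61 to 4.09) does not, and the MXD4 layer is widest in DTC and DTEC.

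The wider network held 3 further partners. MGA, a large MAX partner of a polycomb repressor complex, fell to 51.3% of untreated WT in DTC (log2 fold change -0.96 ± 0.191, adjusted p = 0.000493), with 66.1, 70.2 and 72.1 CPM in untreated WT and 49.0, 29.6 and 28.3 in DTC. In DTEC it had 91.6, 84.6 and 61.3 CPM, 1.15 ± 0.191 above DTC (log2, adjusted p = 0.000183). MXD3 rose in DTC from 2.28 ± 0.602 to 5.09 ± 2.14 CPM (1.16 ± 0.358, adjusted p = 0.0105). Its DTC libraries held 2.70, 6.83 and 5.75 CPM, so replicate 1 was nearly level with untreated WT (1.58, 2.60 and 2.65). The untreated WT values rest on 53, 77 and 92 counts. From DTC to DTEC, where it had 2.91 ± 1.16 CPM, MXD3 gave -0.81 ± 0.352, which did not pass (adjusted p = 0.0654) but did in 7 of 13 alternatives, among them without DTC replicate 1 (0.00515) and without DTEC replicate 3 (0.0252). MLXIPL, the glucose sensor ChREBP, rose in DTEC from 2.87 ± 0.618 to 4.29 ± 0.729 CPM (0.58 ± 0.212, adjusted p = 0.0331), a call lost when untreated WT replicate 2 (adjusted p = 0.126), untreated WT replicate 3 (0.0738), DTEC replicate 2 (0.0537) or DTEC replicate 3 (0.137) was left out. None of the 3 was called in KO. By edgeR 1 of them, MLXIPL, was higher there at an unadjusted p of 0.05, and DESeq2 called 0. MXD3 was called higher in KO without the filter (adjusted p = 0.0419) and in the fit of 6 libraries (0.0368), and MLXIPL in that fit (0.0267).

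Genes whose products MYC uses at chromatin were mostly lower in both erlotinib groups. Of 10 cofactors, 9 fell in DTC (median log2 fold change -1.27), beside 33.3% of all genes. WDR5, which anchors MYC at promoters, went from 133 ± 3.02 to 38.0 ± 2.83 CPM, and the ATPases RUVBL1 (185 ± 3.21 to 59.0 ± 5.70) and RUVBL2 (338 ± 20.4 to 114 ± 17.1) fell beside it. ZBTB17, the MIZ1 partner through which MYC represses genes, was the 1 cofactor not called in DTC. In DTEC 8 of 10 remained below untreated WT (median -0.87), beside 26.3% of all genes, with WDR5 at 65.2 ± 1.39 CPM. From DTC to DTEC 7 of 10 had risen and 1, ZBTB17, had fallen, beside 28.8% and 26.6% of all genes. In KO, edgeR and DESeq2 each called 0 of 10, 1 was lower at an unadjusted p of 0.05, and the fit of 6 libraries called 1 lower. Over all genes, edgeR called 2.76% higher and 1.55% lower in KO, and the fit of 6 libraries called 1259 of 15183 lower.

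The corepressor genes that MXD proteins and MNT recruit fell less. In DTC, 6 of 9 were lower and 1 higher (median -0.44), beside 33.3% and 34.0% of all genes. SAP30 (5.05 ± 0.398 to 1.99 ± 0.733 CPM), SIN3A (117 ± 2.8 to 64.5 ± 14.5) and NCOR1 (87.9 ± 5.38 to 49.7 ± 13.6) fell most, and SIN3B was the gene called higher (log2 fold change 0.24), a call lost without the filter on low counts (adjusted p = 0.166), in a fit of the 6 libraries (0.0771) and without untreated WT replicate 1 (0.0754). With total-count scaling the split was 4 lower and 2 higher. From DTC to DTEC 7 of 9 rose, SIN3A to 136 ± 13.1 CPM, and SIN3B fell, beside 28.8% and 26.6% of all genes. Against untreated WT, DTEC showed 2 higher (SUDS3, RBBP4) and 1 lower (HDAC2), shares no larger than the 26.0% and 26.3% of all genes. The RBBP4 call was lost without the filter (adjusted p = 0.255) and when any of 5 libraries was left out: DTEC replicates 1 (0.108), 2 (0.0612) and 3 (0.0844) and untreated WT replicates 2 (0.15) and 3 (0.148). That of HDAC2 was lost with total counts (0.0605). In KO, edgeR and DESeq2 each called 0 of 9, 1 was lower at an unadjusted p of 0.05, and the fit of 6 libraries called HDAC2 lower. Over all genes, edgeR called 2.76% higher and 1.55% lower in KO, and the fit of 6 libraries called 1259 of 15183 lower.

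Genes that set the stability of the MYC protein were lower in DTC, 8 of 11 with a median of -0.93, beside 33.3% of all genes, and the other 3 were not called. PLK1 went from 325 ± 25.5 to 31.7 ± 3.84 CPM, AURKA, the kinase that shields MYC family proteins from degradation, from 195 ± 15.4 to 36.9 ± 0.795, and CIP2A, an inhibitor of the phosphatase that destabilises MYC, from 168 ± 8.14 to 63.4 ± 4.53. PLK1 and AURKA are cell cycle genes as well. The list also holds genes that act in MYC degradation, such as FBXW7 (17.85 ± 1.67 to 12.39 ± 1.79 CPM). Its median thus has no single direction for MYC stability. In DTEC, PLK1 (115 ± 9.26) and AURKA (86.2 ± 4.11) had risen from DTC while CIP2A was at 63.4 ± 4.17. CIP2A also fell in KO, to 116 ± 2.01 CPM (log2 fold change -0.53), the only call of this list there, beside 1.55% of all genes called lower.

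Genes commonly listed as activated by MYC were lower in DTC. Of 28, CCND2 had no counts and 27 were tested, and all 27 fell (median -1.81), beside 33.3% of all genes. BOP1, a ribosome assembly factor, went from 328 ± 52.0 to 36.6 ± 6.53 CPM, the nucleolar methyltransferase FBL from 293 ± 33.8 to 44.4 ± 3.08, and ODC1, which starts polyamine synthesis, from 511 ± 42.4 to 86.5 ± 13.1. With total-count scaling 26 of 27 fell (median -1.46). Proliferation genes, which MYC does not set alone, were lower too, 12 of 14 with TOP2A at 21.3% and MKI67 at 22.8% of untreated WT, while CCNE2, which encodes cyclin E2, rose from 14.3 ± 1.43 to 24.9 ± 2.85 CPM. Whether the targets moved with MYC or with cell division was not tested.

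By 28 days the activated targets had come back only in part. DTEC had 24 of 27 below untreated WT (median -0.92), beside 26.3% of all genes. Of the 27, 23 were above DTC, beside 28.8% of all genes, while the other 4 were not called. FBL regained 170 ± 17.8 CPM, BOP1 75.0 ± 21.5, and ODC1 was at 72.1 ± 3.70 CPM, not called different from DTC, though it was called lower than DTC with total counts (adjusted p = 0.00303), the upper quartile (0.00292), DESeq2 (0.0312) and without DTC replicate 2 (0.0229) or 3 (0.037). SHMT2, the mitochondrial serine hydroxymethyltransferase, was the 1 target above untreated WT, at 278 ± 26.3 against 172 ± 3.61 CPM. MYC stood at 73.2% of untreated WT at this time, ODC1 at 14.1%, BOP1 at 22.9% and FBL at 58.1%. Proliferation genes were lower than untreated WT in 14 of 14, beside the same 26.3% of all genes.

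In KO, 2 of the 27 were called, both lower, beside 1.55% of all genes. TERT, the telomerase subunit, was at 6.38 ± 0.957 against 13.8 ± 2.56 CPM (log2 fold change -1.11), and ODC1 at 309 ± 6.46 CPM (-0.72). The TERT call was lost without untreated WT replicate 2 (adjusted p = 0.0528) or 3 (0.0513) or KO replicate 1 (0.0629), while that of ODC1 was kept in all 13 alternatives. The median of the list in KO was -0.18, beside -0.01 for all genes. A fit of only these 6 libraries called 9 lower and 1 higher of the 27, and 2656 of 15183 genes in all, 1259 of them lower.

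Genes listed as repressed by MYC split in DTC, 5 of 9 higher and 1 lower (median 0.89), beside 34.0% and 33.3% of all genes. With total-count or upper-quartile scaling 7 were higher. CDKN2B, the inhibitor of CDK4 and CDK6, rose from 9.20 ± 0.728 to 136 ± 4.40 CPM, CDKN1A, which encodes p21, from 9.59 ± 0.717 to 58.3 ± 2.34, and the stress gene GADD45A from 40.5 ± 3.68 to 190.2 ± 22.7. NDRG2 and GAS1 also rose, and CEBPA fell from 14.9 ± 1.29 to 4.38 ± 1.05 CPM. By DTEC these genes had parted: CDKN2B was still at 74.6 ± 5.997 CPM, while CDKN1A (5.69 ± 0.672) and GADD45A (26.9 ± 5.46) were below untreated WT. The 5 genes above untreated WT in DTEC, beside 26.0% of all genes, were CDKN2B, NDRG2, NDRG1, FTH1 and CDKN1B. In KO, GAS1 (2.11 ± 0.572 to 4.62 ± 0.171 CPM) and NDRG2 (3.62 ± 0.531 to 7.73 ± 0.256) rose. The GAS1 call was lost without untreated WT replicate 1 (adjusted p = 0.0534) or 3 (0.052).

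Targets of the MLX branch did not move as a block. HK2, the hexokinase, fell from 142 ± 3.97 to 44.2 ± 13.4 CPM in DTC and KLF10 from 67.4 ± 1.75 to 32.5 ± 2.03. PFKFB3 and ARRDC4 were also called lower, each by 0.32 on the log2 scale, beside 33.3% of all genes. Both values turned to 0.04 with total counts. The ARRDC4 call was lost in 8 other alternatives, and that of PFKFB3 with the upper quartile (adjusted p = 0.817), in the fit of 6 libraries (0.0512) and without untreated WT replicate 2 (0.0984) or 3 (0.105) or DTC replicate 2 (0.145) or 3 (0.141). TXNIP, the most used readout of MLXIP and MLX, had 110 ± 6.47 CPM in untreated WT and 129 ± 24.8 in DTC, which did not pass but did in 5 of 13 alternatives: total counts (adjusted p = 0.000443), the upper quartile (0.00086), DESeq2 (0.0441) and without DTC replicate 2 (0.0298) or 3 (0.0168). It rose in DTEC to 301 ± 18.1 CPM, 2.75 times untreated WT, when neither MLXIP nor MLX was called different from untreated WT. ARRDC4, the other target most tied to this branch, was at 18.3 ± 2.77 CPM in DTEC against 22.4 ± 1.58 and was not called. In KO, edgeR called 0 of the 5, with 3 lower at an unadjusted p of 0.05, where 2847 of all 17115 genes passed in either direction. DESeq2 called 2 lower (KLF10 and ARRDC4), beside 422 of 17115 genes called lower. The fit of 6 libraries called 4 lower (these, HK2 and TXNIP), beside 1259 of 15183 genes.

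**Figure D4:**
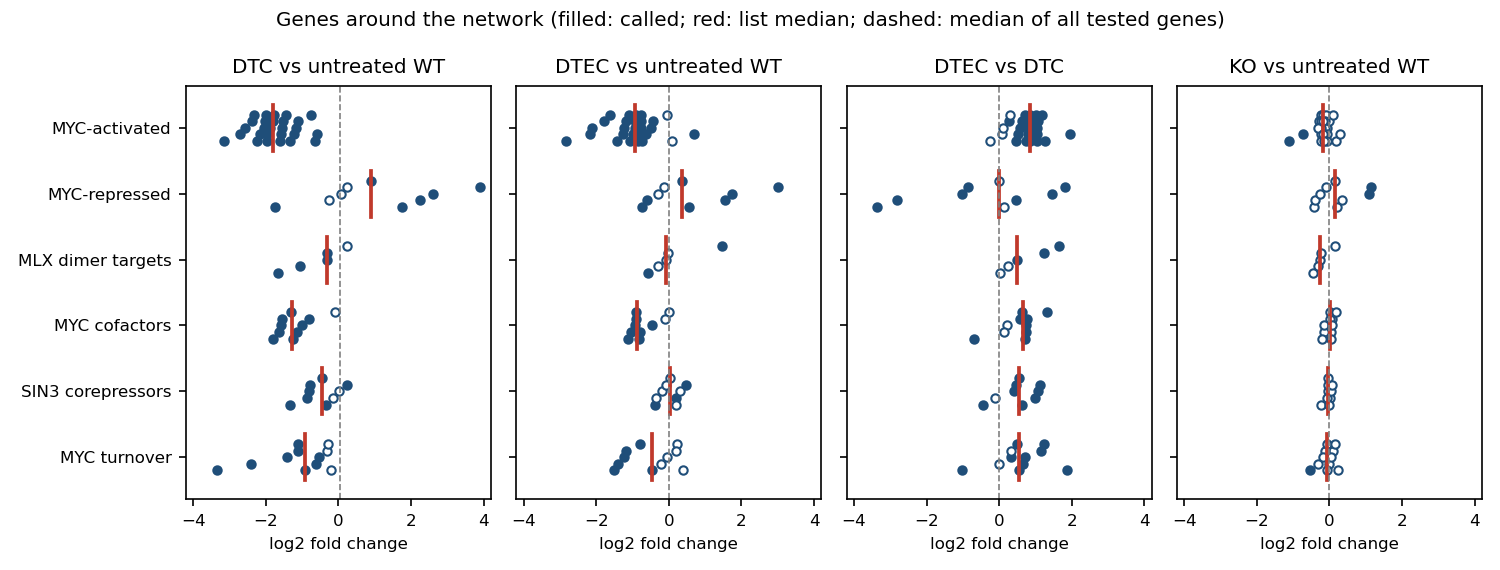
Log2 fold change (horizontal axis) of each gene in 6 lists around the network for the 4 comparisons; filled points passed an adjusted p of 0.05, the red bar is the list median and the dashed line the median of all tested genes. The MYC-activated list has its median at -1.81 in DTC, -0.92 in DTEC and -0.18 in KO.

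Genes that read ERK output, the signal erlotinib lowers, were lower in DTC in 9 of 11 cases (median -2.40), beside 33.3% of all genes. DUSP6 went from 85.7 ± 1.78 to 2.62 ± 0.644 CPM, SPRY4 from 84.7 ± 7.14 to 2.70 ± 0.493 and PHLDA1 from 227 ± 16.9 to 26.1 ± 3.30. In DTEC all 11 were above DTC, beside 28.8% of all genes. Against untreated WT, however, 6 were lower and 2 higher, beside 26.3% and 26.0%. DUSP6, at 123 ± 4.93 CPM, was above untreated WT, whereas SPRY4 (48.5% of untreated WT), PHLDA1 (58.6%) and FOSL1 (30.9%) were below it. With total-count scaling 4 were lower and 4 higher. MYC, at 25.4% of untreated WT in DTC, fell less than DUSP6 (3.06%) or SPRY4 (3.19%). FOSL1 was the 1 gene of this list called in KO, at 114 ± 1.99 against 192 ± 13.2 CPM (log2 fold change -0.76), beside 1.55% of all genes called lower.

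The genes with profiles closest to MYC over the 12 libraries, among 9721 with a mean of at least 10 CPM, were FAM86DP, SMAGP and SLC37A2, with root mean square differences in centred log2 CPM of 0.118, 0.139 and 0.14 against a median of 0.704 over all genes. FAM86DP had 30.5 ± 0.454 CPM in untreated WT, 25.58 ± 0.562 in KO, 7.53 ± 1.31 in DTC and 20.7 ± 1.28 in DTEC, and belongs to a family of near copies, so its counts are uncertain. The genes closest to MXD4 were HDAC5, TM7SF2 and ABTB1 (0.273, 0.275 and 0.285, against a median of 1.21). HDAC5, a class II histone deacetylase, had 8.24 ± 1.55 CPM in untreated WT, 12.9 ± 1.37 in KO, 41.8 ± 2.18 in DTC and 50.6 ± 5.03 in DTEC. The likeness is a description over libraries that share their treatments.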

How the data were processed

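RNA sequencing gave 1 deposited table of expected counts per gene (estimated reads, not scaled to depth) for 12 libraries. Per the submitters' processing notes the tools were RSEM 1.3.1, Bowtie2 2.5.2 and DESeq2 1.40.2 with GRCh38; annotation and strand setting are not given in the sources used here, and the kit was stranded per the labels' protocols. The table had 0 columns of other samples. Values were rounded and fitted in R 4.3.3 with edgeR 4.0.16 (TMM scaling, filterByExpr, robust quasi-likelihood F tests, 1 mean per group, all 12 libraries). Benjamini-Hochberg adjustment ran over 17115 genes, and genes were called at an adjusted p under 0.05. CPM used TMM-scaled totals, and levels per kb used GENCODE 29 exon lengths, with all annotated exons of a gene joined. The 13 alternatives per comparison were total-count and upper-quartile scaling, DESeq2 1.42.0, no filter on low counts, a replicate block, unrounded counts, only the 6 libraries compared, and each of those 6 left out. The fit was tested on simulated data with 100 changed genes per size. It recovered 82% at a log2 change of 1.0 and 16% at 0.5, so changes near 0.5 were mostly missed in that setting. Few of its 15420 genes changed, whereas 11520 of 17115 were called in DTC. Adjustment is stricter where few genes change, so these shares do not carry over to the erlotinib comparisons. Smaller changes were called there, such as MLXIP in DTC at -0.33. All libraries carry 1 batch label. Promoters came from RefSeq.

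The members and the gene lists were chosen with earlier results of these data known. The rule for names took all members, MXD3, MGA, MLXIPL and TDP1, the 3 called genes of each list with the largest change in DTC, the called gene with the largest change in KO, and the 3 genes most like MYC and MXD4. CCND2, CCNE2, CDKN1B, CEBPA, FBXW7, FTH1, HDAC2, NDRG1, NDRG2, PFKFB3, RBBP4, SHMT2, SIN3B, SUDS3, TXNIP and ZBTB17 were named after their values had been seen.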

Additional observations from a re-analysis of the deposited data

Results flagged for a closer look

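For 6 of 9 tested network genes and 2 of 3 further partners, the edgeR test called a difference between DTEC and DTC. This is the difference of the responses to erlotinib at 28 and 7 days, because both use the untreated WT libraries. Over all 17115 tested genes, 9480 were called in this test, 28.8% higher and 26.6% lower. Calls were thus common over all genes, and the members' share is not read as a trait of the network. The log2 difference was 1.53 for MYC, -0.35 for MAX, 0.96 for MXI1, 0.37 for MNT, 0.34 for MLXIP and 0.39 for MLX. It was 1.15 for MGA and 0.84 for MLXIPL. The calls of MNT, MLXIP and MLX were lost in 5, 7 and 5 of 13 alternatives.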

How the results depend on the processing

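Over the 9 tested members, 468 values were recomputed, and 29 lost and 11 gained a call, while 1 called value (MLXIP in DTC) turned and lost its call. Values of opposite sign numbered 22, of which 6 arose with total counts and 4 with the upper quartile, and apart from MLXIP in DTC these were not called in either fit. Scaling mattered most. With total counts, and likewise with the upper quartile, members called lower in DTC numbered 1, lower in DTEC against untreated WT 1, and in DTEC against DTC 2 higher and 2 lower. Lower calls in DTEC against untreated WT also numbered 1 without the filter. Leaving out 1 library gave 2 to 5 higher and 1 to 2 lower for DTEC against DTC, and the fit of 6 libraries gave 3 higher there and 1 lower in KO. Called values that turned with total counts were MLXIP (0.0241), ARRDC4 (0.0357), PFKFB3 (0.0382) and RBBP4 (0.0169) in DTC, and uncalled ones there included MXI1 (0.12) and MNT (0.21). Genes called in KO numbered 1149 with DESeq2, 1147 without the filter, 2656 with 6 libraries and 321 to 426 with 1 library left out, so the KO count depends on the choice. Without division by length the MYC family to repressor ratio was 3.61 in untreated WT, 2.93 in KO, 0.748 in DTC and 1.803 in DTEC. The labels do not say whether replicate numbers pair the libraries, and the values do not settle it. Deviations of same-numbered libraries correlated at -0.030 to 0.179 (median 0.053), against -0.187 to 0.118 (median -0.032) for other numbers. Of 12 libraries, 7 correlated best with their own number. With the replicate block 11775, 9255, 9732 and 887 genes were called in DTC, DTEC, DTEC against DTC and KO, and no member's call changed. Depth limits MYCL, with 29 to 52 counts in untreated WT, and MYCN. The causes of these changes were not tested.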
